A study of Mus musculus with 12 samples.

Results

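The B7 family of costimulatory ligands was measured in mouse resting B (RB) cells after 4 h of stimulation. Its members here are Cd80, Cd86, Icosl, Cd274 (which encodes PD-L1), Pdcd1lg2 (PD-L2) and Cd276 (B7-H3). They were chosen by gene name and not by their values, although earlier results of these data were known. The microarray carried 9 probes for these 6 genes among 61307 probes. Of the 9, 7 probes for 5 genes were well above background in both arrays of at least 1 condition and were tested along with 31599 probes in all. RB cells were purified from spleens of BALB/c mice, given as female and 6 weeks old in the labels, by removing cells that carry CD43. They were left unstimulated or received Pam2CSK4 (a lipopeptide ligand of TLR-2), a biotinylated anti-CD86 antibody cross-linked with streptavidin, both of these together (TLR2.CD86), an anti-CD40 antibody, or anti-CD40 with Pam2CSK4. Each of the 6 conditions had 2 arrays, 12 in all, and an isotype control antibody was not analysed here. The question asked of the ligands was whether signals through TLR-2, CD86 and CD40, alone or combined, changed the RNA that B cells hold for instructing T cells.

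B7 ligands are surface proteins of antigen presenting cells that bind receptors of the CD28 family on T cells. CD80 and CD86 bind the activating receptor CD28 and the inhibitory receptor CTLA-4. ICOS ligand, encoded by Icosl, binds ICOS and is known in B cells for its part in germinal centre help from T cells. PD-L1 and PD-L2 bind PD-1 and restrain T cells, and B7-H3 is a further family member whose receptor is not settled. On B cells, CD86 is known as a ligand that is displayed early after activation, CD80 as one that appears later, and ICOS ligand as one that resting cells already hold. CD86 has a special place in this design, since the anti-CD86 antibody binds its protein while the array reads its RNA.

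The probes decide which transcripts the array could see, so those of the tested members are printed here, 5′ to 3′, as the deposited files hold them. Those for Cd80 (NM_009855), the dimmer one for Cd86 (NM_019388) and the dimmer one for Icosl (NM_015790) are given whole at 60 bases, and the others by their first 30 of 60 bases. Capitals were not used because no part of a probe carries more weight than the rest.
Cd80: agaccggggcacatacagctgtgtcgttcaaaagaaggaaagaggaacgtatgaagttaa
Cd86, brighter: ccaggagacatcactagaatccaaccaaca
Cd86, dimmer: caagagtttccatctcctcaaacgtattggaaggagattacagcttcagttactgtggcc
Icosl, brighter: tagatggggcatagtgacttctagaaacct
Icosl, dimmer: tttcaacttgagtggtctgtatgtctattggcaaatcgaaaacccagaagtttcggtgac
Cd274 (NM_021893): ttgatgagtctcatgttaatgtcttgtttg
Pdcd1lg2 (NM_021396): gagttggaaggatctgatgggaaaccctca
Cd86 and Icosl thus had a pair of probes at different places of the transcript, and both probes of a pair are described below. Where a gene is given by 1 value, it is that of the brighter tested probe.

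Levels are log2 processed intensities minus each array's 75th percentile, so that 0 is the level of that percentile. They were compared between arrays for 1 probe at a time, since the brightness of different probes depends on their sequence. The arrays lay on 2 slides, each scanned as a unit. Slide 1 held 8 arrays, both of unstimulated cells, both of anti-CD40 with Pam2CSK4 and replicate 1 of the other 4 conditions, whereas slide 2 held replicate 2 of those 4 conditions. Between 46.6% and 60.6% of probes were well above background on an array. The median over all probes in the authors' log2 table lay between -3.94 and -3.41 on 11 arrays and at -2.80 on anti-CD40 replicate 2. All 7 B cell marker genes were well above background on all 12 arrays, as were 5 of 6 T cell markers, 9 of 9 myeloid and dendritic cell markers and 3 of 4 NK cell markers, and none of the markers was below background throughout. The summed linear level of the myeloid and dendritic markers, in units of the 75th percentile, was 145.7 to 146.3 in unstimulated cells and 91.2 to 122.8 on the arrays of the 5 stimulated conditions. S100a8 made up 82.2% to 88.4% of that sum, and without it the other 8 markers summed to 17.3 to 17.4 in unstimulated cells and to 11.9 to 20.6 after stimulation, so that these ranges overlapped. The T cell markers summed to 26.3 to 26.5 in unstimulated cells and to 15.8 to 23.5 after stimulation, and the NK markers to 1.06 to 1.38 over all arrays. The B cell markers summed to 337 to 367 in unstimulated cells, to 434 to 488 after anti-CD40 with Pam2CSK4 and to 313 to 417 in the other conditions, with 48.7% to 56.7% of it from Cd79b, whose probe was saturated on all 12 arrays. The part of other cells in the values of the ligands was not tested, and in these bulk samples fewer cells of a type and less RNA per cell cannot be told apart.

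Cd274, the gene of PD-L1, was highest in B cells given anti-CD40 with Pam2CSK4 and lowest in those given TLR2.CD86. Unstimulated cells had levels of 5.21 and 5.16 on the log2 scale. Pam2CSK4 gave 4.99 and 5.06, anti-CD86 gave 4.79 and 4.96, and TLR2.CD86 gave 4.81 and 4.84. Anti-CD40 gave 5.48 and 5.27, and anti-CD40 with Pam2CSK4 gave 5.77 and 5.63. Both arrays of every condition without anti-CD40 therefore lay below both arrays of each condition with it, and the conditions with Pam2CSK4, anti-CD86 or both lay below unstimulated cells. The order of the means was anti-CD40 with Pam2CSK4, anti-CD40, unstimulated, Pam2CSK4, anti-CD86 and TLR2.CD86, and no neighbours in this order differed past the threshold of an adjusted p of 0.05 in limma.

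After anti-CD40 with Pam2CSK4, Cd274 rose against unstimulated cells by 0.52 ± 0.12 (SE, 2 arrays a condition, 95% interval 0.24 to 0.80) on the log2 scale, 1.43-fold (limma, adjusted p = 0.0224). Both arrays of unstimulated cells and both of this condition lay on slide 1, so that the slide does not enter the size of this difference. It does enter the spread, which the fit estimates over all 6 conditions. After blocking on slide the difference was again 0.52 (limma, adjusted p = 0.00604). The call was lost without any 1 of the 4 arrays compared, with adjusted p from 0.0748 without replicate 2 of anti-CD40 with Pam2CSK4 to 0.145 without its replicate 1, and the same held without unstimulated replicate 1 (0.108) or 2 (0.140). When arrays were centred on their median in place of the 75th percentile, the difference was 0.41 with an adjusted p of 0.942. Anti-CD40 alone gave a difference of 0.19 (95% interval -0.09 to 0.47, adjusted p = 0.296), which became -0.37 with median centring. For Pam2CSK4 by itself the difference was -0.16 (adjusted p = 0.528), and for anti-CD86 it was -0.31 (-0.59 to -0.03, adjusted p = 0.178). Set against anti-CD86, anti-CD40 alone gave Cd274 a difference of 0.51 (limma, adjusted p = 0.0368, and 0.00901 after blocking on slide). TLR2.CD86 differed from anti-CD40 alone by -0.55 (adjusted p = 0.0351, and 0.00747 blocked). Anti-CD40 alone against Pam2CSK4 gave 0.35, which passed only after blocking on slide (adjusted p = 0.160 and 0.0408). The other alternatives were not run on these.

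TLR2.CD86 stimulation gave a Cd274 difference of -0.36 (95% interval -0.64 to -0.08) from unstimulated cells, which missed the threshold (limma, adjusted p = 0.0923). After blocking on slide it was -0.37 and passed (adjusted p = 0.0360). Against Pam2CSK4 the difference was -0.20 (-0.48 to 0.08, adjusted p = 0.659) and against anti-CD86 it was -0.05 (-0.33 to 0.23, adjusted p = 0.969). The latter was 0.022 on slide 1 alone and 0.038 without anti-CD86 replicate 2.

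Icosl, the gene of ICOS ligand, was highest in unstimulated cells and lower on every stimulated array by its brighter probe. Unstimulated cells had 3.79 and 3.87 on the log2 scale. Pam2CSK4 gave 3.65 and 3.47, anti-CD86 3.46 and 3.32, and TLR2.CD86 3.60 and 3.57. Anti-CD40 gave 3.28 and 2.95, and anti-CD40 with Pam2CSK4 gave 3.30 and 3.35. The 10 stimulated arrays did not overlap with the 2 unstimulated ones. In order of the means, unstimulated cells were followed by TLR2.CD86, Pam2CSK4, anti-CD86, anti-CD40 with Pam2CSK4 and anti-CD40, and again no neighbours differed past the threshold.

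Icosl fell in anti-CD40 stimulated cells by 0.71 ± 0.14 (SE, 95% interval of the difference -1.03 to -0.40) on the log2 scale, to 0.610 of the unstimulated level (limma, adjusted p = 0.0149). After blocking on slide the difference was -0.63 (adjusted p = 0.00203), and on slide 1 alone it was -0.55. The call was lost without unstimulated replicate 1 (adjusted p = 0.0872) or 2 (0.112), and without anti-CD40 replicate 2 (0.0622), the array with the high median. Icosl also fell after anti-CD40 with Pam2CSK4, with a difference of -0.51 (-0.83 to -0.19, adjusted p = 0.0371). This call was lost in 8 of the 12 fits that each left out 1 array, with adjusted p from 0.0518 without either array of TLR2.CD86 to 0.188 without unstimulated replicate 2. It was 0.0556 without either array of anti-CD86, 0.137 without unstimulated replicate 1, and 0.164 and 0.144 without replicate 1 and 2 of anti-CD40 with Pam2CSK4. Centring on the median gave differences of -1.28 (adjusted p = 0.135) for anti-CD40 and -0.62 (0.855) for anti-CD40 with Pam2CSK4, the same direction but past no threshold.

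The signals without anti-CD40 left Icosl with differences that missed the threshold, -0.27 (adjusted p = 0.362) for Pam2CSK4, -0.44 (-0.76 to -0.12, adjusted p = 0.116) for anti-CD86 and -0.25 (adjusted p = 0.262) for TLR2.CD86. After blocking on slide the anti-CD86 difference was -0.35 and passed (adjusted p = 0.0229). The dimmer Icosl probe lay close to the background and ran from -5.04 to -3.23. It was well above background on 4 of 12 arrays, both of anti-CD86 and 1 each of Pam2CSK4 and TLR2.CD86, and on no array of unstimulated, anti-CD40 or anti-CD40 with Pam2CSK4 cells. With unstimulated values set to the lowest level well above background, the Pam2CSK4 mean of this probe was 1.04-fold higher. Of the 2 arrays in that mean, 1 did not clear the background, so this is not a lower bound. No fold could be given for the other conditions. The mean of both probes turned the sign of all 5 differences from unstimulated cells, to between 0.0076 and 0.45, and the dimmer probe near background is averaged in there.

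**Figure D1:**
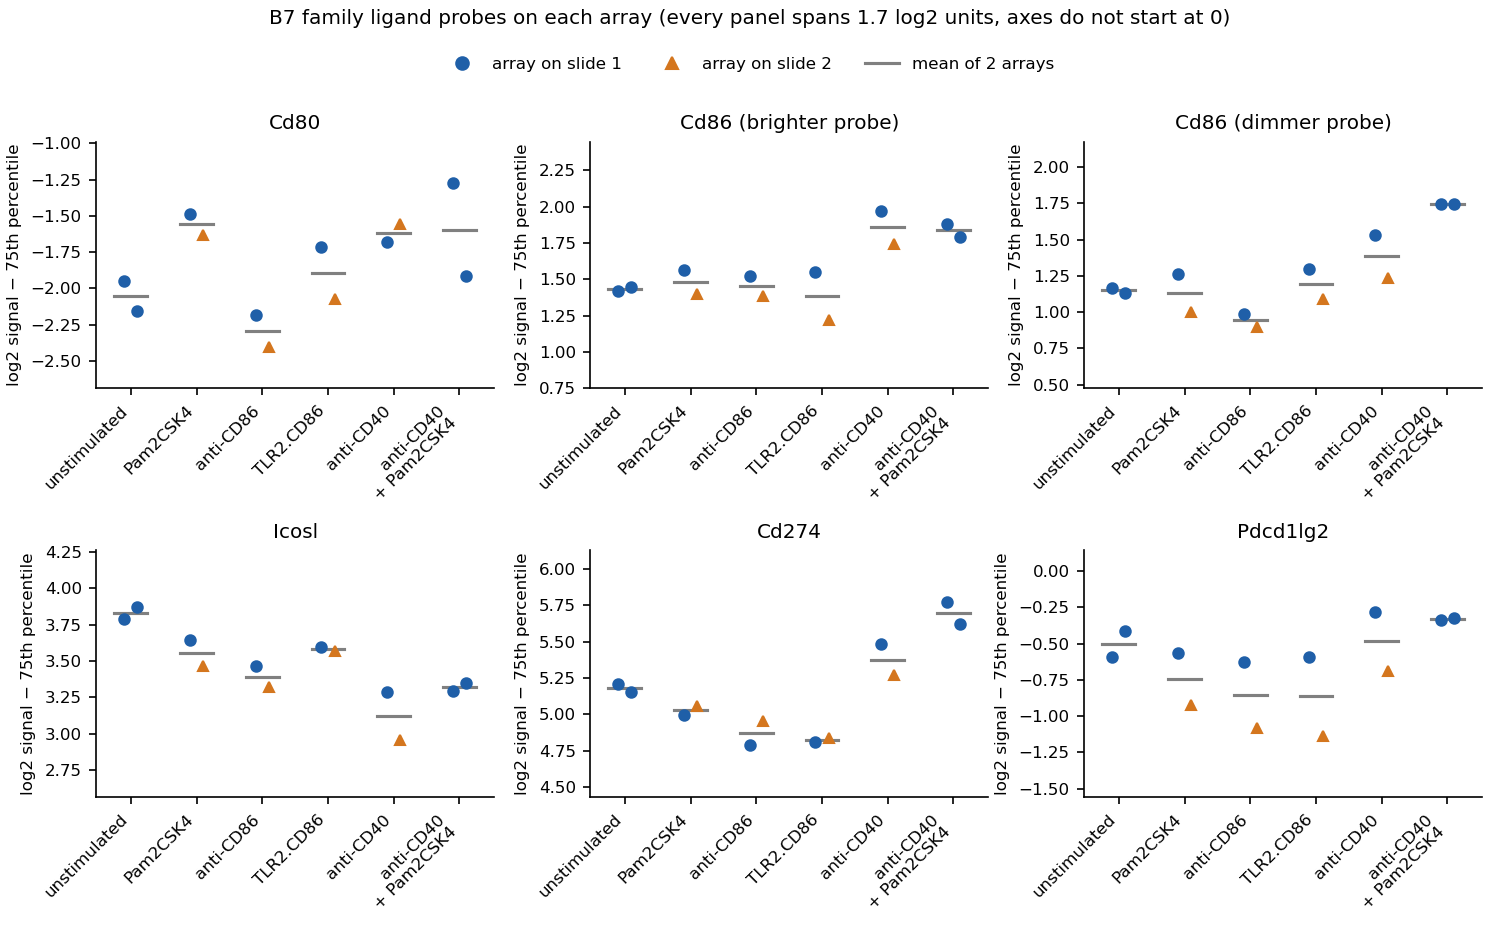
Level of 6 tested B7 ligand probes, without the dimmer Icosl probe near background, on the 12 arrays, as log2 processed intensity minus the array's 75th percentile (vertical axis), by condition (horizontal axis). Points are arrays (circles on slide 1, triangles on slide 2) and bars are the means of 2 arrays. Cd274 spans 4.79 to 5.77 with both anti-CD40 conditions on top, and the brighter Icosl probe spans 2.95 to 3.87 with unstimulated cells on top.

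Cd86 RNA, read by either probe, had its highest mean levels in the conditions with anti-CD40. After anti-CD86 the brighter probe lay close to unstimulated cells, whereas the dimmer probe had its 2 lowest values of 12 there. By the brighter probe, unstimulated cells had 1.42 and 1.45. Pam2CSK4 gave 1.56 and 1.40, anti-CD86 1.52 and 1.39, and TLR2.CD86 1.55 and 1.22. Anti-CD40 gave 1.97 and 1.74, and anti-CD40 with Pam2CSK4 1.88 and 1.79. All 4 arrays with anti-CD40 lay above the other 8, which overlapped with each other, and the array on slide 2 was the lower one in each condition split over the slides. The means ran from anti-CD40 through anti-CD40 with Pam2CSK4, Pam2CSK4, anti-CD86 and unstimulated cells to TLR2.CD86, with no neighbours past the threshold.

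Against unstimulated cells the brighter Cd86 probe differed by 0.43 (95% interval 0.09 to 0.76) after anti-CD40 and by 0.41 (0.07 to 0.74) after anti-CD40 with Pam2CSK4, and both missed the threshold in limma (adjusted p = 0.0819 and 0.0962). After blocking on slide the differences were 0.53 and 0.41 and both passed (adjusted p = 0.00185 and 0.00296). Median centring turned the first to -0.14. The anti-CD86 antibody gave a difference of 0.021 with an interval of -0.32 to 0.36 (adjusted p = 0.945), and the sign was turned by median centring (-0.12) and by leaving out anti-CD86 replicate 1 (-0.045). TLR2.CD86 gave -0.05 (adjusted p = 0.866), which was 0.060 after blocking on slide, 0.023 after quantile normalization and 0.12 without TLR2.CD86 replicate 2, and Pam2CSK4 gave 0.05 (adjusted p = 0.892), which was -0.15 with median centring and -0.033 without Pam2CSK4 replicate 1.

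The dimmer Cd86 probe gave 1.17 and 1.14 in unstimulated cells, 1.26 and 1.00 with Pam2CSK4, 0.99 and 0.90 with anti-CD86, and 1.30 and 1.09 with TLR2.CD86. Anti-CD40 gave 1.53 and 1.24, and both arrays of anti-CD40 with Pam2CSK4 had 1.75, the highest of the 12. By this probe Cd86 rose after anti-CD40 with Pam2CSK4 by 0.59 ± 0.15 (SE, 95% interval 0.26 to 0.93), 1.51-fold (limma, adjusted p = 0.0263), a call that ended without any 1 of the 4 arrays compared (adjusted p from 0.122 to 0.143) and with median centring (0.920). For anti-CD40 alone its difference was 0.23 (adjusted p = 0.296), 0.34 after blocking on slide (adjusted p = 0.00829) and -0.33 with median centring. For anti-CD86 it was -0.21 (-0.54 to 0.13, adjusted p = 0.443), with no overlap between those arrays and the unstimulated ones. The pair of Cd86 probes thus fell on different sides of the threshold for anti-CD40 with Pam2CSK4, although their intervals overlapped.

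Cd80, the other ligand of CD28 and CTLA-4, had low levels and a wide spread. Unstimulated cells had -1.95 and -2.15, Pam2CSK4 -1.49 and -1.63, anti-CD86 -2.18 and -2.40, and TLR2.CD86 -1.71 and -2.07. Anti-CD40 gave -1.68 and -1.55, and anti-CD40 with Pam2CSK4 gave -1.28 and -1.91. Both anti-CD86 arrays were below all others, and the largest gap between replicates was that of anti-CD40 with Pam2CSK4, whose arrays shared a slide. No difference from unstimulated cells passed the threshold in limma. They were 0.49 (95% interval -0.02 to 1.01, adjusted p = 0.331) for Pam2CSK4, -0.24 (adjusted p = 0.566) for anti-CD86 and 0.16 (adjusted p = 0.662) for TLR2.CD86. For anti-CD40 the difference was 0.44 (adjusted p = 0.208), and for anti-CD40 with Pam2CSK4 it was 0.46 (-0.05 to 0.97, adjusted p = 0.189). All 5 intervals included 0.

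Pdcd1lg2, the gene of PD-L2, was lower on slide 2 in every condition that lay on both slides. Unstimulated cells had -0.59 and -0.41, Pam2CSK4 -0.56 and -0.93, anti-CD86 -0.63 and -1.08, and TLR2.CD86 -0.59 and -1.14. Anti-CD40 gave -0.28 and -0.69, and anti-CD40 with Pam2CSK4 -0.34 and -0.32. In the 4 conditions split over the slides, the array on slide 2 was lower than that on slide 1 by a mean of -0.44 ± 0.08 (SD, n = 4), in 4 of 4. The same mean was -0.21 for each Cd86 probe, -0.17 for the brighter Icosl probe, -0.15 for Cd80 and 0.01 for Cd274. Differences of Pdcd1lg2 from unstimulated cells ran from -0.36 for TLR2.CD86 (adjusted p = 0.353) to 0.17 for anti-CD40 with Pam2CSK4 (adjusted p = 0.690), and after blocking on slide that for anti-CD40 was 0.24 (adjusted p = 0.0548).

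Cd276, the gene of B7-H3 (NM_133983), had a pair of probes that were not well above background on any of the 12 arrays, with levels between -6.53 and -4.03. It was not tested, and no level can be compared for it.

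**Figure D2:**
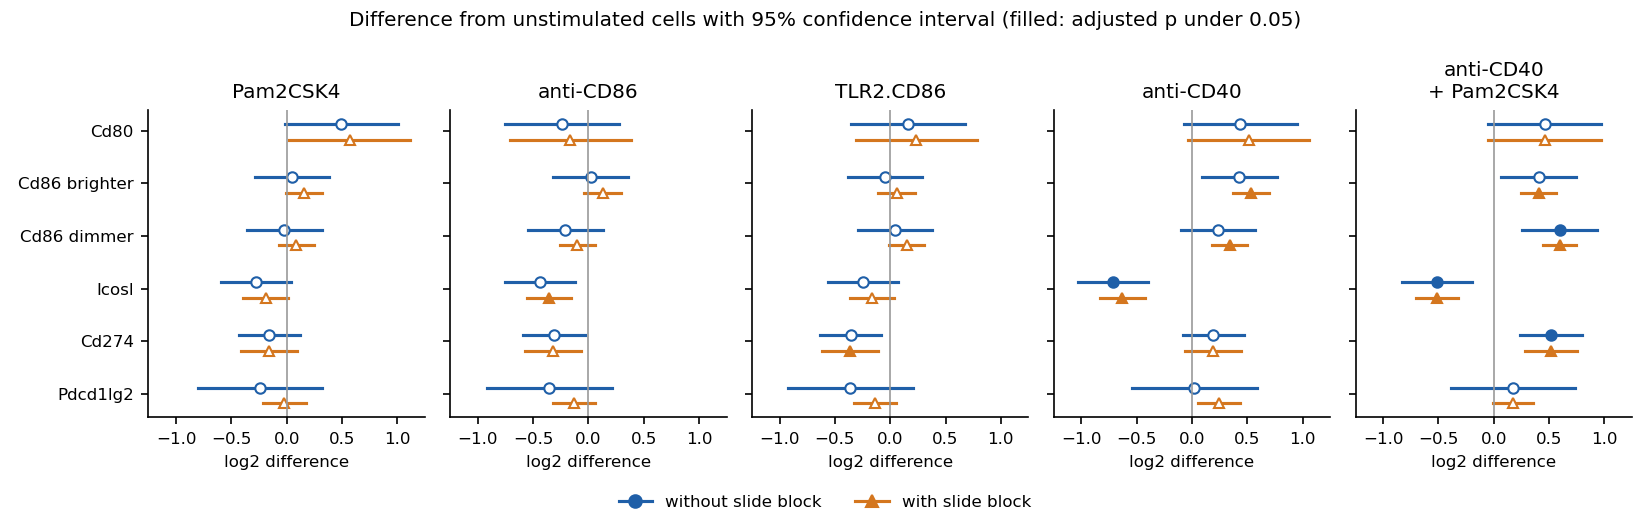
Difference of 6 tested B7 ligand probes from unstimulated cells in the 5 stimulated conditions, as log2 difference with its 95% interval from limma (horizontal axis), without the slide (circles) and with the slide blocked (triangles). Filled symbols passed an adjusted p of 0.05. Without the slide, Icosl passed with anti-CD40 (-0.71), and with anti-CD40 with Pam2CSK4 the calls were Cd274 (0.52), the dimmer Cd86 probe (0.59) and Icosl (-0.51).

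Against unstimulated cells, none of the 5 tested ligand genes was called after Pam2CSK4 (limma, adjusted p under 0.05), where 0.133% of all tested probes were called and no ligand gene had an unadjusted p under 0.05. None was called after anti-CD86 either, with 2.07% of all probes called and 2 ligand genes, Cd274 and Icosl, under an unadjusted 0.05. For TLR2.CD86 the count was also 0, beside 10.7% of all probes, with 1 gene (Cd274) under an unadjusted 0.05. Anti-CD40 gave 1 of 5, Icosl, lower, beside 16.8% of all probes. Anti-CD40 with Pam2CSK4 gave 2 of 5, Cd274 higher and Icosl lower, beside 18.1% of all probes. With 5 genes, these counts do not set the family apart from all probes. The median difference of the 5 genes was -0.16, -0.31, -0.25, 0.19 and 0.41 in this order of conditions, and over all probes tested it was -0.07, -0.05, -0.03, -0.02 and 0.01.

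After blocking on slide, more of the ligands passed, and so did more of all probes. Pam2CSK4 gave 0 of 5 ligand genes beside 10.9% of all probes (limma, adjusted p under 0.05), and 1 gene, Cd80, had an unadjusted p under 0.05. Anti-CD86 gave 1 (Icosl, lower) beside 28.5%, and TLR2.CD86 gave 1 (Cd274, lower) beside 35.1%. Anti-CD40 gave 2 (Cd86 higher, Icosl lower) beside 37.4%, and anti-CD40 with Pam2CSK4 gave 3 (Cd274 and Cd86 higher, Icosl lower) beside 47.5%. In this fit the conditions split over the slides set the slide effect, and the 2 conditions that lay on slide 1 alone do not bear on it.

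Between the combined stimuli, Cd274 was the ligand that differed most. It was higher after anti-CD40 with Pam2CSK4 than after TLR2.CD86 by 0.88 ± 0.12 (SE, 95% interval 0.60 to 1.16) on the log2 scale, 1.84-fold (limma, adjusted p = 0.00442), and the arrays of these conditions did not overlap. The difference was 0.88 after blocking on slide (adjusted p = 0.00133) and 0.89 on slide 1 alone. It passed in all 12 fits that left out 1 array, with adjusted p from 0.00450 to 0.0468. It did not pass with median centring, where it was 1.06 (adjusted p = 0.448), nor when only the arrays of these 2 conditions were fitted (adjusted p = 0.0739).

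The other ligands differed less between the 2 combined stimuli. The dimmer Cd86 probe was higher after anti-CD40 with Pam2CSK4 by 0.55 (adjusted p = 0.0454), a call lost in 8 of 12 fits without 1 array (all but those without an array of Pam2CSK4 or anti-CD40), and the brighter one gave 0.45 (0.11 to 0.79, adjusted p = 0.0872). Icosl gave -0.26 (adjusted p = 0.245), Pdcd1lg2 0.53 (adjusted p = 0.188) and Cd80 0.30 (adjusted p = 0.415), the last being -0.021 without replicate 1 of anti-CD40 with Pam2CSK4. In all, 1 of 5 ligand genes was called beside 12.2% of all probes, and 4 of 5 after blocking on slide beside 34.6%, where Cd274, Cd86 and Pdcd1lg2 were higher and Icosl lower. The blocked differences were 0.35 for Cd86 (adjusted p = 0.0103), 0.31 for Pdcd1lg2 (0.0250) and -0.35 for Icosl (0.0205).

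Adding anti-CD40 to Pam2CSK4 raised Cd274 by 0.67 (95% interval 0.39 to 0.95), 1.59-fold (limma, adjusted p = 0.0135), and 0.68 after blocking on slide (adjusted p = 0.00424). This call was lost without any 1 of the 4 arrays compared, with adjusted p from 0.0649 to 0.111, the largest without replicate 1 of anti-CD40 with Pam2CSK4, and with median centring (0.882). The dimmer Cd86 probe was also higher, by 0.61 (adjusted p = 0.0362), a call lost in 8 of 12 fits without 1 array (all but those without an array of TLR2.CD86 or anti-CD40), and the brighter one differed by 0.36 (adjusted p = 0.169). Cd274 was the 1 gene of 5 called, beside 9.81% of all probes, and after blocking on slide 3 were called beside 31.6%, the others being Cd86 (0.25, adjusted p = 0.0357) and Icosl (-0.32, adjusted p = 0.0296). Adding Pam2CSK4 to anti-CD40 gave Cd274 a difference of 0.32 (0.04 to 0.60) that missed the threshold (adjusted p = 0.222, and 0.0816 after blocking on slide) and Icosl 0.20 (adjusted p = 0.452). The dimmer Cd86 probe differed there by 0.36 (unadjusted p = 0.0379, adjusted p = 0.236), and after blocking on slide by 0.25, which passed (adjusted p = 0.0485). By its brighter probe no ligand gene was called there, in limma with or without the slide, beside 2.89% and 15.3% of all probes, and Cd274 alone of the 5 had an unadjusted p under 0.05 in either fit.

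Joining anti-CD86 and Pam2CSK4 called no ligand gene against either signal alone. Against Pam2CSK4 0 of 5 passed in limma beside 0.0633% of all probes, and beside 11.1% after blocking on slide, and no ligand gene had an unadjusted p under 0.05. Against anti-CD86 0 of 5 passed beside 0.225%, and beside 7.78% after blocking on slide, and the count at an unadjusted p under 0.05 was 0 without the slide and 1 with it, Icosl. The dimmer Cd86 probe differed there by 0.25 after blocking on slide (unadjusted p = 0.00608, adjusted p = 0.0615). Pam2CSK4 and anti-CD86 as single signals were also set against each other, with 0 of 5 ligand genes called in limma beside 0.813% of all probes and 1, Cd80, under an unadjusted 0.05. The blocked fit again gave 0 of 5, beside 19% of all probes.

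Anti-CD40 with Pam2CSK4 against anti-CD86 gave 1 of 5, Cd274, higher by 0.83 (limma, adjusted p = 0.00349) beside 18.1% of all probes. The dimmer Cd86 probe was also higher, by 0.80 (adjusted p = 0.00869). With the slide blocked, 3 of 5 were called beside 43.2% of all probes, all higher, Cd274 by 0.84 (adjusted p = 0.00125), Cd86 by 0.28 (0.0185) and Pdcd1lg2 by 0.31 (0.0217).

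The interaction, the effect of both signals minus the sum of the single effects on the log2 scale, was called for no ligand gene. For anti-CD86 and Pam2CSK4 it was 0.11 for Cd274 and 0.47 (95% interval 0.02 to 0.91) for Icosl, both with an adjusted p of 0.972 in limma, beside 0.019% of all probes called and 0.228% after blocking on slide. The Cd274 value was -0.021 after quantile normalization. For anti-CD40 and Pam2CSK4 it was 0.48 for both Cd274 (0.08 to 0.87, adjusted p = 0.210) and Icosl (0.03 to 0.93, adjusted p = 0.243), beside 1.15% of all probes and 8.55% after blocking on slide. The slide enters both interactions, since unstimulated cells and anti-CD40 with Pam2CSK4 lay on slide 1 alone. Blocked on slide in limma, the second was 0.49 for Cd274 (adjusted p = 0.105) and 0.31 for Icosl (0.181). Its median over all probes was 0.16 without the slide and 0.07 with it. The first was 0.12 for Cd274 (0.753) and 0.38 for Icosl (0.197) when blocked. Without the slide, Icosl in the first interaction and both Cd274 and Icosl in the second had an unadjusted p under 0.05.

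**Figure D3:**
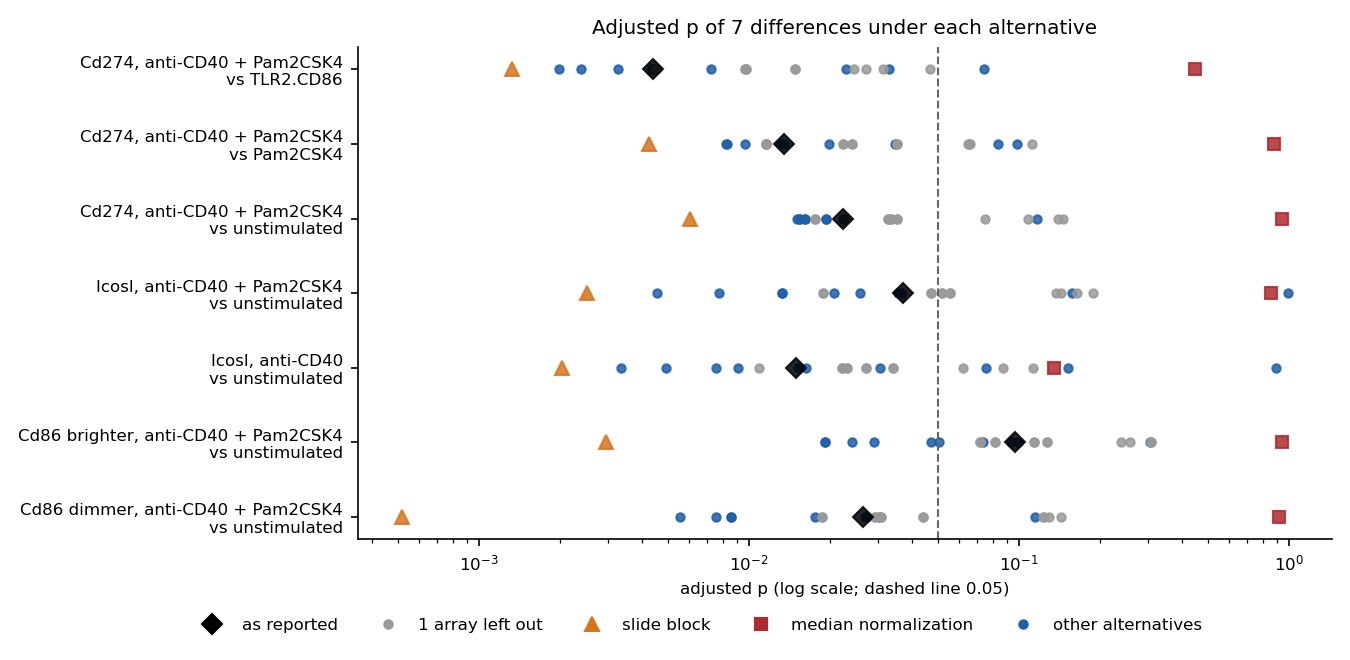
Adjusted p of 7 ligand differences (rows) under each way of processing the arrays, on a log axis with a dashed line at 0.05 (diamonds as reported, grey points with 1 array left out, triangles after blocking on slide, squares with median centring, blue points for the others). Cd274 for anti-CD40 with Pam2CSK4 against TLR2.CD86 has 0.00442 as reported, 0.00133 after blocking on slide and 0.448 with median centring.

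The RefSeq table of GRCm38.p6 holds the 250 bases before the gene start for 5 of the 6 ligands. Those of Cd274 and Icosl are shown because these genes carried the calls in opposite directions. Capitals mark a match to the letters GAAANNGAA, an interferon regulatory factor (IRF) type motif, on either strand.
Cd274, chr19:29367188-29367437, plus strand: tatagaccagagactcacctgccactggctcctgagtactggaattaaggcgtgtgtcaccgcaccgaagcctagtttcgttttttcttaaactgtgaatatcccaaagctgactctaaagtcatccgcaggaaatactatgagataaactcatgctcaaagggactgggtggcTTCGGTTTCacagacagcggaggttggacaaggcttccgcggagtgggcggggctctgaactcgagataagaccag
Icosl, chr10:78069118-78069367, plus strand: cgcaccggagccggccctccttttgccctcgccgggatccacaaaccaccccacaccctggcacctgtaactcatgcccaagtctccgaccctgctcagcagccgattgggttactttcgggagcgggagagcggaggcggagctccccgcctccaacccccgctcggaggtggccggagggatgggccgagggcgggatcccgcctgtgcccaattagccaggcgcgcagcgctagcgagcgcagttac
The match in the Cd274 window is on the reverse strand and begins 76 bases before the start. The Icosl window has 68.8% G and C and that of Cd274 50.4%. No window of the 5 ligands held the NF-κB type letters GGGNNTTCC or the STAT type letters TTCNNNGAA, and only that of Cd274 held the IRF type. Only these fixed letters were searched, so sites of the same factors with other letters or another length would have been missed. Over all 32851 promoter windows of the table the shares with a match were 7.13% for the IRF type, 4.98% for the NF-κB type and 7.02% for the STAT type, so a match in 1 of 5 windows is a description and not a site.

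Among the receptors that bind these ligands, 4 of 5 genes were tested. Without the slide, Pdcd1, the gene of PD-1, was the 1 gene of these called against unstimulated cells. Its level was 3.37 ± 0.03 (SD, n = 2) in unstimulated cells and 2.59 ± 0.14 after TLR2.CD86, a difference of -0.78 (limma, adjusted p = 0.0297), and anti-CD40 gave -0.69 (adjusted p = 0.0310). For anti-CD40 with Pam2CSK4 the difference was -0.35 (adjusted p = 0.185, and 0.00523 after blocking on slide). Differences for TLR2.CD86 were -0.67 (adjusted p = 0.222) for Cd28, -0.55 (0.0548) for Ctla4 and -0.22 (0.335) for Icos. With the slide blocked, 2 of 4 were called lower for TLR2.CD86, Pdcd1 and Ctla4 (-0.51, adjusted p = 0.0326). For TLR2.CD86 these counts, 1 and 2 of 4, stand beside 10.7% of all probes and 35.1% after blocking. The summed T cell markers were lower on the same arrays, as given above, but the single markers did not all move one way. After TLR2.CD86 1 of 6 was called lower in limma (Thy1, -0.75, adjusted p = 0.0338, with -0.29 and 0.293 by a second probe), while Cd4 gave 0.87 (0.0503) and Cd3e 0.20 (0.734). Blocked on slide, limma called 3 lower, Thy1 (-0.62, adjusted p = 0.00225), Cd8a (-0.45, 0.00885) and Cd3g (-0.42, 0.0189). It called 1 higher, Cd4 (0.73, 0.0287). The Cd4 probe was dim, at -3.76 in unstimulated cells and well above background on 10 of 12 arrays. The part of T cells in these values was not tested. Of 6 other B7 and butyrophilin genes, 2 were tested and none was called against unstimulated cells, with Vsir, the gene of the inhibitory ligand VISTA, at -0.01 (adjusted p = 0.975) and Btnl2 at 0.88 (0.0869) after anti-CD40 with Pam2CSK4.

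Of 7 tested genes that set how long B7 proteins stay at the surface, 1 rose and 3 fell after anti-CD40 with Pam2CSK4, where 18.1% of all probes were called. Marchf1, a ubiquitin ligase that removes CD86 and MHC class II from the surface, fell by 1.39 ± 0.20 (SE, adjusted p = 0.00324 in limma), and its relative Marchf8 fell by 0.54 (adjusted p = 0.0368). Cmtm6, which protects PD-L1 from degradation, fell by 0.64 (adjusted p = 0.0160), whereas Adam17, a sheddase of surface proteins, rose by 1.14 (adjusted p = 0.00451). Anti-CD40 alone gave 1 higher and 4 lower, the fourth being Adam10 (-0.70, adjusted p = 0.0376), beside 16.8% of all probes. After TLR2.CD86 Marchf8 was the 1 of 7 called (-0.68, adjusted p = 0.0295), and a second Adam17 probe passed there (0.77, adjusted p = 0.0110) while the brighter one gave 0.62 (0.0607). The 1 of 7 stands beside 10.7% of all probes. TLR2.CD86 gave, after blocking on slide, 1 higher, Adam17 (0.74, adjusted p = 0.00597), and 3 lower, Marchf1 (-0.45, 0.00417), Marchf8 (-0.58, 0.00259) and Cmtm6 (-0.34, 0.0126), beside 35.1% of all probes, and anti-CD40 with Pam2CSK4 gave 2 higher and 4 lower beside 47.5%. Cd83, which opposes the removal of CD86 by Marchf1, was saturated on all 12 arrays, so no difference can be read for it. Its probe was nevertheless counted in the blocked fit, where the 2 higher genes after anti-CD40 with Pam2CSK4 were Adam17 and Cd83. The median difference of the 7, with Cd83 included, was -0.53 after anti-CD40 with Pam2CSK4 and -0.30 after TLR2.CD86.

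Of 12 transcription factors of activation and interferon pathways, among them the NF-κB and IRF families, 8 rose and none fell after anti-CD40 with Pam2CSK4. Irf4, which directs B cell activation and plasma cell fate, rose by 2.26 ± 0.11 (SE, limma adjusted p = 1.81e-05), Myc by 2.29 (0.000247) and Batf, an AP-1 family factor, by 2.08 (0.000118). The NF-κB genes Nfkb1, Nfkb2 and Rela rose by 1.33 (adjusted p = 0.00156), 1.19 (0.0109) and 0.83 (0.0349), with the Nfkb1 probe saturated on 3 arrays and a second Rela probe past no threshold (0.79, adjusted p = 0.0947). Irf1 and Irf8 rose by 0.75 each (adjusted p = 0.0118 and 0.0382). After TLR2.CD86 2 of the 12 rose, Irf4 by 1.13 (adjusted p = 0.00555) and Batf by 0.56 (0.0431), and further probes of Irf1 (0.84, adjusted p = 0.0291), Irf8 (0.62, 0.0310) and Myc (0.54, 0.0486) passed where the brightest probe did not. Anti-CD40 gave 6 higher and 1 lower, beside 16.8% of all probes. Pam2CSK4 gave 1 higher, Irf4 (adjusted p = 0.0147), beside 0.133% of all probes. Blocked on slide, the counts were 11 higher and 1 lower for anti-CD40 with Pam2CSK4 and 7 higher and 2 lower for TLR2.CD86. The shares of all probes called were 18.1% and 10.7% for these conditions, and 47.5% and 35.1% after blocking. The median difference was 0.79 for anti-CD40 with Pam2CSK4 and 0.20 for TLR2.CD86, beside 0.01 and -0.03 over all probes.

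Of 4 costimulatory ligand genes of the TNF family, 3 were tested. Tnfsf9, the gene of 4-1BB ligand, was called higher after anti-CD40 with Pam2CSK4, by 2.31 (limma, adjusted p = 0.0195). Its probe did not clear the background in unstimulated cells, and this p rests on those values. With the lowest level well above background in their place, the ratio was 2.80-fold. After normexp background correction the log2 difference was 0.76. In the same comparison Tnfsf4, the gene of OX40 ligand, differed by 0.49 (adjusted p = 0.128) and Tnfsf14 by 0.22 (0.554), while Cd70 was not tested. Of the 4 receptors of the stimuli, Tlr1, a partner of TLR-2, rose by 1.85 (adjusted p = 0.000286) and Cd40 by 1.53 (0.00482), and after TLR2.CD86 Tlr1 rose by 0.91 (0.0158). Tlr2 and Tlr6 gave 0.15 (adjusted p = 0.602) and 0.43 (0.177) with anti-CD40 and Pam2CSK4. The 1 of 3 TNF family ligands and 2 of 4 receptors called in that condition stand beside 18.1% of all probes. After TLR2.CD86 the 1 of 4 receptors stands beside 10.7%. Of the myeloid and dendritic markers 5 of 9 were called lower and 1 higher both after anti-CD40 with Pam2CSK4 and after TLR2.CD86, the higher one being Zbtb46, a dendritic cell factor, by 3.37 (adjusted p = 7.36e-06) and 0.97 (0.0118). These counts stand beside 18.1% and 10.7% of all probes. Second probes of 2 of the lower genes were not called, Itgam with 0.33 (adjusted p = 0.136) and -0.30 (0.185) and Csf1r with -0.034 (0.944) and -0.21 (0.544). S100a8, the brightest marker, fell by 0.46 (adjusted p = 0.0152) and 0.59 (0.0163), while after TLR2.CD86 Lyz2 gave 0.34 (0.170) and Cd14 -0.06 (0.885).

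**Figure D4:**
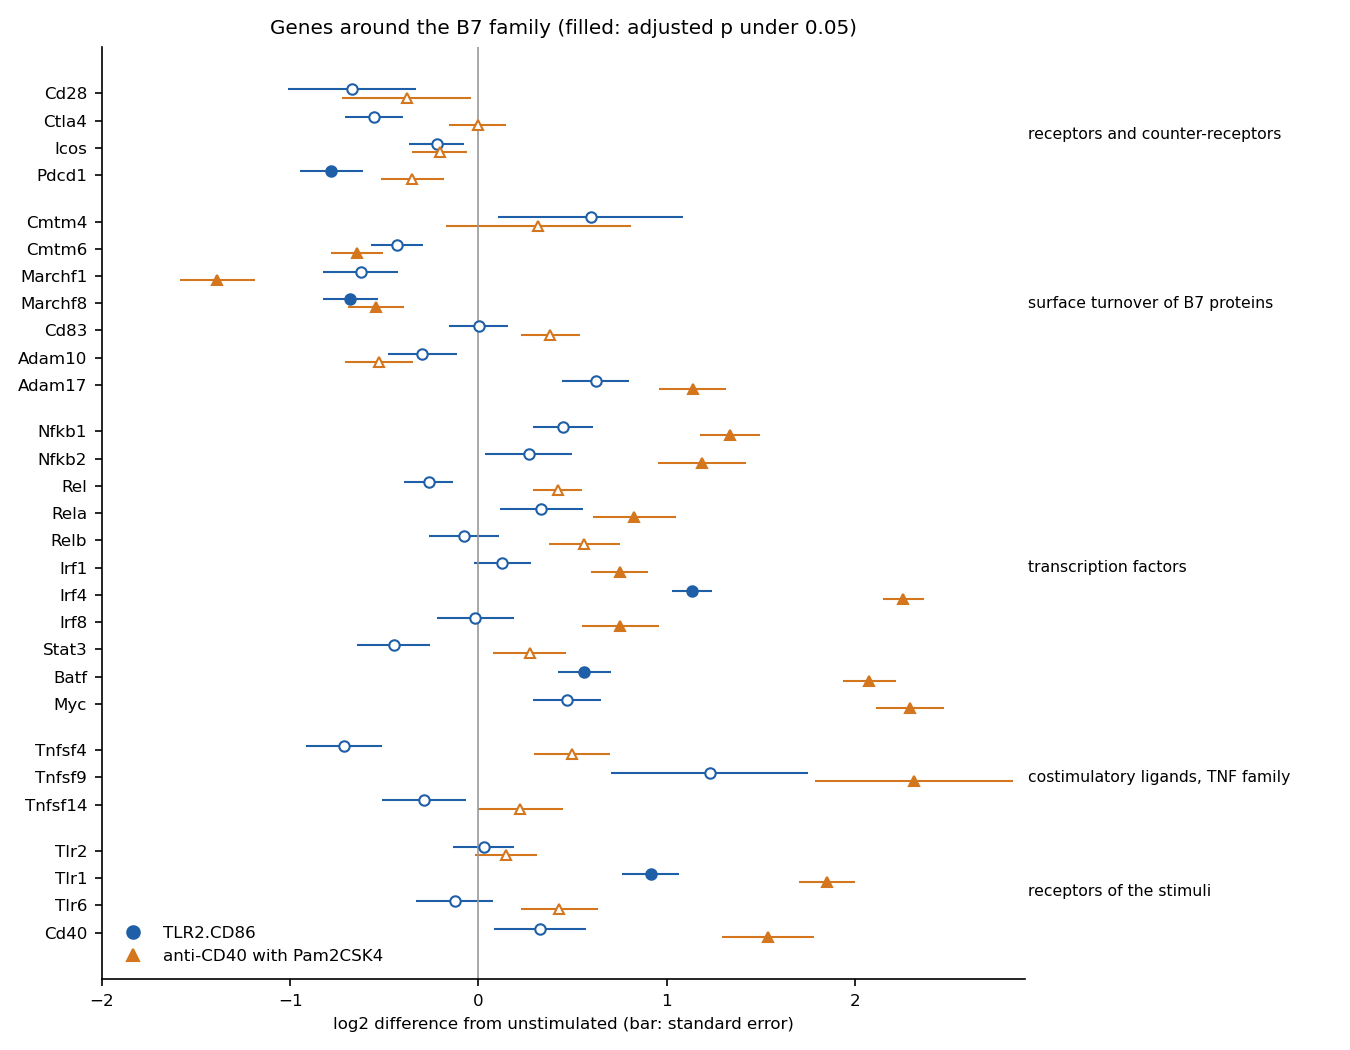
Difference from unstimulated cells of the genes around the B7 ligands (receptors, surface turnover, transcription factors, TNF family ligands and receptors of the stimuli) after TLR2.CD86 and after anti-CD40 with Pam2CSK4, as log2 difference from limma with its standard error. Filled symbols passed an adjusted p of 0.05. Marchf1 lies at -1.39 and Irf4 at 2.26 after anti-CD40 with Pam2CSK4, against -0.62 and 1.13 after TLR2.CD86.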

How the data were processed

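RNA from 12 samples of RB cells was labelled with Cy3 and hybridised to a custom Agilent mouse array annotated on mm9. The authors extracted the spots with Agilent Feature Extraction 10.5.1.1 and deposited a processed, background-subtracted intensity for each of 61657 spots of an array. They also deposited a log2 table, which equals log2 of that intensity minus 1 constant per array, within 0.0005 to 0.0087 of the 75th percentile, and with no centring of genes. GeneSpring GX and a one way test are named in the study's methods.

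From the intensities, the log2 value minus the array's 75th percentile was computed after dropping control spots and outlier spots (5 to 35 an array), and spots of a probe were averaged. Saturated spots (987 to 1206 an array) were kept. The 31667 probes that cleared the background on both arrays of some condition were kept, less 68 with a missing value. limma 3.58.1 in R 4.3.3 fitted 1 mean per condition over the 12 arrays with default empirical Bayes moderation, and p-values were adjusted by Benjamini-Hochberg over the 31599 probes, with a gene called at an adjusted p under 0.05 by its brightest tested probe. Python 3.11.15, pandas 2.3.3, numpy 2.4.6 and matplotlib 3.10.9 were used for tables and figures. The fits were tested on simulated data.

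Groups came from the labels. Whether the 2 arrays of a condition stem from separate cultures or animals is not stated in the labels, while the study describes biological replicates, so p-values measure the spread between these arrays. Their number limits the precision. Whether replicate numbers pair the arrays across conditions cannot be told, since they coincide with the slide in the 4 conditions split over the slides. Deviations from the condition means correlated at 0.54 to 0.67 for the 6 pairs of conditions that were both split. They correlated at -0.11 to 0.07 for the other 9 pairs, with 0.07 for unstimulated cells and anti-CD40 with Pam2CSK4, both on slide 1. Alternatives were the slide or the replicate number as a block, slide 1 alone, other centring, normexp background correction (offset 50), other filters on dim probes, no moderation, only the conditions compared, the mean of all probes, the authors' table and leaving out each array.

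The members and the gene lists (receptors, other B7 genes, surface turnover, transcription factors, TNF family ligands, receptors of the stimuli and cell type markers, 64 genes, 63 of them on the array) were chosen with earlier results of these data known. All members are named, and from each list those called and those needed to account for it, except 1 gene that is not reported here. March1 and March8 are listed on the array under RefSeq accessions and were named through them. Promoter sequences are from RefSeq (GRCm38.p6). Cd86 is not in that table.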

Additional observations from a re-analysis of the deposited data

How the results depend on the processing

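Cd276 and the dimmer Icosl probe had too little signal over background to compare. Of 42 differences of single genes, all 42 stayed on their side of the threshold and in their direction with the authors' table, with only probes well above background on all 12 arrays and without moderation, and 40 did with normexp background correction. Median centring left 29 so, ended 8 calls and turned 5 signs, and it moved the median over all probes by -0.57 for anti-CD40, -0.29 for TLR2.CD86, -0.20 for Pam2CSK4, -0.14 for anti-CD86 and -0.11 for anti-CD40 with Pam2CSK4, while the other scalings moved it by at most 0.07. Testing all probes ended 7 calls, where more probes enter the adjustment.

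The number of ligand genes called changed as follows. For anti-CD40 against unstimulated cells (1) it was 0 with median centring, with all probes tested, with only the conditions compared and with the mean of all probes, and 2 with quantile normalization, normexp, the slide as a block, slide 1 alone and the replicate number as a block. For anti-CD40 with Pam2CSK4 against unstimulated cells (2) it was 0 with median centring and with all probes tested, and 3 with quantile normalization, the slide as a block, slide 1 alone, the replicate number as a block and only the conditions compared. With the mean of all probes this number stayed at 2, but the genes changed. There Cd86 passed in limma (0.50, adjusted p = 0.0471) and Icosl did not (0.0076, 0.989). Against Pam2CSK4 (1) it was 0 with median centring, all probes tested and only the conditions compared, and 3 with the slide as a block. Against TLR2.CD86 (1) it was 0 with median centring and with only the conditions compared, 2 with normexp and with the replicate number as a block, 3 with quantile normalization and 4 with the slide as a block. The slide as a block gave 1 each for anti-CD86 and TLR2.CD86 against unstimulated cells (0). Leaving out each array gave 0 to 1 for anti-CD40, 0 to 2 for anti-CD40 with Pam2CSK4 against unstimulated cells, 0 to 1 against Pam2CSK4 and 1 to 1 against TLR2.CD86, and 0 to 0 elsewhere. The replicate block changed 3 of the 42 differences, all Cd86, which passed with it.

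Signs turned for these differences. Against unstimulated cells, the brighter Cd86 probe gave -0.15 (Pam2CSK4), -0.12 (anti-CD86) and -0.14 (anti-CD40) with median centring, the dimmer one -0.33 and Cd274 -0.37 for anti-CD40. Without replicate 1 of the stimulus Cd86 gave -0.033 for Pam2CSK4 and -0.045 for anti-CD86 (0.131 and 0.088 without replicate 2), and the mean of its probes gave -0.093 for anti-CD86. For TLR2.CD86 Cd86 gave 0.023 with quantile normalization, 0.060 with the slide as a block and 0.118 both on slide 1 and without TLR2.CD86 replicate 2 (-0.212 without replicate 1). The mean of the Icosl probes, in which the probe near background is averaged, gave 0.45 (Pam2CSK4), 0.28 (anti-CD86), 0.36 (TLR2.CD86), 0.059 (anti-CD40) and 0.0076 (anti-CD40 with Pam2CSK4), -0.052 for anti-CD40 with Pam2CSK4 against anti-CD40, and interactions of -0.37 with anti-CD86 and -0.50 with anti-CD40. For TLR2.CD86 against anti-CD86, Cd274 gave 0.022 on slide 1, 0.038 without anti-CD86 replicate 2 and -0.133 without replicate 1. Its interaction with anti-CD86 was -0.021 with quantile normalization. Cd80 gave -0.021 for anti-CD40 with Pam2CSK4 against TLR2.CD86 without replicate 1 of the former and 0.618 without its replicate 2. The cause was not tested, except as stated.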

Other observations

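A search for the genes whose pattern is most like that of a ligand was set for members whose condition means spanned at least 1 on the log2 scale, and no tested member given by its brightest probe reached it (Cd274 0.88, Icosl 0.71). The search was run nevertheless for these 2 genes, a choice made after their values were seen, over 12 arrays and 4266 candidate probes. Arrays of a condition and of a slide share their source, so the correlations are descriptions. Most like Cd274 were Prmt6 (Pearson r = 0.965), Fam71f2 (0.962) and C1qbp (0.958). Most like Icosl were 1110007C09Rik (0.943), Susd3 (0.940) and Lyl1 (0.935).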
